A study of Arabidopsis thaliana with 16 samples.

Results

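Accessible chromatin was examined at 4 genes of the guard-cell programme in the stomatal lineage of Arabidopsis thaliana, which are MYB60 (AT1G08810), MYB61 (AT1G09540), SCAP1 (AT5G65590) and GC1 (AT1G22690). The members are the transposase hypersensitive sites (THSs, stretches of open chromatin) that share at least 1 bp with the TAIR10 gene or with the 3000 bp upstream of its start. They number 19 of the 65351 THSs of the series, with 5 for MYB60, 5 for MYB61, 5 for SCAP1 and 4 for GC1.

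Nuclei came from whole 3-day-old seedlings of the Columbia accession grown in continuous light. INTACT places a biotinylated tag on the nuclear envelope of chosen cells so that their nuclei can be captured, and ATAC-seq then counts transposase insertions, or cutcounts, in their open chromatin. Every line carried the biotin ligase BirA under the constitutive ACT2 promoter and the nuclear tag under 1 cell-state promoter, which was AtML1 in protoderm (Proto, 3 libraries), SPCH in meristemoid mother cells (MMC, 3 libraries), MUTE in meristemoids (M, 4 libraries), FAMA in guard mother cells (GMC, 3 libraries) and GC1 in guard cells (GC, 3 libraries). A state is therefore also a separate transgenic line, and the GC line holds an additional copy of the GC1 promoter. Reads from that copy map to the endogenous promoter.

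A stoma opens and closes through a pair of guard cells, which form when a guard mother cell divides symmetrically and then mature. MYB60 and MYB61 are R2R3-MYB transcription factors. MYB60 is expressed in guard cells and promotes stomatal opening, whereas MYB61 limits stomatal aperture and also acts in lignin and mucilage formation. SCAP1 is a Dof-type zinc finger factor required for guard-cell maturation, and Dof factors bind the short word AAAG. GC1 encodes a small cysteine-rich protein of the gibberellin-regulated GASA family, and its promoter is widely used to drive expression in guard cells.

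Values are cutcounts per THS after division by 1 size factor per library, called scaled cutcounts. Library totals on THSs lay between 3412226 cutcounts in M replicate 3 and 13596509 in M replicate 4, so single values of the weakest members rest on as few as 5 cutcounts. Signal contrast, the log2 ratio of the median of the 10% most accessible THSs to that of the 50% least accessible, was 2.84 to 3.25 for Proto, 3.14 to 4.22 for MMC, 2.42 to 4.14 for M, 2.38 to 2.55 for GMC and 2.55 to 2.96 in the GC libraries. M replicate 3 had the highest value of the 4 M libraries at 11 of the 19 members, whereas it was the highest of them at 18.9% of all THSs.

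The sequences below are the parts of 6 member THSs on which the results turn, read from the TAIR10.1 RefSeq assembly, 5′ to 3′ on the strand of the gene and clear of annotated genes. They are the THS with the most scaled cutcounts at each gene, the second GC1 THS and the SCAP1 THS nearest to its gene. Capitals mark the Dof word AAAAG or TAAAG and its reverse complement.
THS_05423 (GC1, chr1:8026373-8026672, plus strand): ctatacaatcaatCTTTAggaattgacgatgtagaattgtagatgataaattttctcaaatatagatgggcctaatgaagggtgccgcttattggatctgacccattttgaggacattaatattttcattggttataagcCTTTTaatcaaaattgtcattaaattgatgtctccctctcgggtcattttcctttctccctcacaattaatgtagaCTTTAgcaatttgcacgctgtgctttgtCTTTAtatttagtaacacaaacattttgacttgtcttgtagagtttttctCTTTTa
THS_05424 (GC1, chr1:8026826-8027125, plus strand): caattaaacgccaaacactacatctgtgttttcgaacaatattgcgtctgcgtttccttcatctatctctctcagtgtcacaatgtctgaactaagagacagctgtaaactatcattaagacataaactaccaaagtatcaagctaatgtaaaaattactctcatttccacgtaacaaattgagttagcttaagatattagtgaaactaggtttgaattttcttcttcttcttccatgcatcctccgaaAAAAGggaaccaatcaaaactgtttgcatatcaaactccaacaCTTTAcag
THS_01884 (MYB60, chr1:2820479-2820591, minus strand): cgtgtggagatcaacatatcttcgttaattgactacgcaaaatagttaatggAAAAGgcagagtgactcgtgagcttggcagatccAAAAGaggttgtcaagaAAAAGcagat
THS_02056 (MYB61, chr1:3085801-3086100, plus strand): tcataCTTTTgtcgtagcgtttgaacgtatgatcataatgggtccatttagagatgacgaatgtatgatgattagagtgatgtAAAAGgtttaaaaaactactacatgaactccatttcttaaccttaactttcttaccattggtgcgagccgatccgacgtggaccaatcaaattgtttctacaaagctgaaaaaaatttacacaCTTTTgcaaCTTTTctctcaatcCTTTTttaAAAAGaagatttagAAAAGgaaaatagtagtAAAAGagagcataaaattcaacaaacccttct
THS_64667 (SCAP1, chr5:26215452-26215751, minus strand): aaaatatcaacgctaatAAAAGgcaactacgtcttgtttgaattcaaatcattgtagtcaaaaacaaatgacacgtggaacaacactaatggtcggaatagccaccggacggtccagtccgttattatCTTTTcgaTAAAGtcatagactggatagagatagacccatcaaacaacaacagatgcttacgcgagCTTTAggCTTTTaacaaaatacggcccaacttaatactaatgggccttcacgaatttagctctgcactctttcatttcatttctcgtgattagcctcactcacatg
THS_64663 (SCAP1, chr5:26213742-26213931, minus strand): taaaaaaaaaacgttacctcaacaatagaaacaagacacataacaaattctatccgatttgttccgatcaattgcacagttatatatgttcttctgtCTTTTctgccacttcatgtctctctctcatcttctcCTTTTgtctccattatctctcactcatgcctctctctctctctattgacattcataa

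The GC1 gene lies on chromosome 1 from 8027126 to 8028168. Its 4 THSs differed widely in how the GC libraries stood to the rest. The 2 THSs nearest to the gene start were much higher in GC, the next one upstream was higher on average without passing the test, and the farthest was level.

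THS_05424 (chromosome 1 from 8026801 to 8027326) spans the GC1 start. It had 431, 354 and 354 scaled cutcounts in the GC libraries, against 78.4, 82.8 and 97.6 for Proto, 80.8, 84.6 and 51.4 for MMC, 83.5, 68.9, 198 and 104 for M, and 107, 112 and 127 for GMC. All GC libraries lay above all 13 others, of which M replicate 3 was the highest. The log2 fold change of GC against the averaged other 4 states was 2.02 (SE 0.22, adjusted p = 4.45e-05, limma with Benjamini-Hochberg adjustment over all THSs). On the linear scale the GC mean was 3.92 times that of the other states.

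THS_05423 (8026320 to 8026672) lies 631 bp upstream of the GC1 start by its midpoint, between genes, and its upstream end overlaps the start of the divergent neighbour AT1G22680. It had 357, 336 and 347 scaled cutcounts in GC, against 92.7, 109 and 108 for Proto, 126, 116 and 154 for MMC, 95.1, 140.2, 182 and 177 for M, and 81.2, 98.5 and 72.3 for GMC. The GC libraries were again above all others and lay close together (346 ± 10.7, SD, n = 3), while GMC had the lowest mean at 84.0 ± 13.3 (SD, n = 3). The log2 fold change of GC was 1.61 (SE 0.19, adjusted p = 0.000105), and the GC mean was 2.96 times the mean of the other states.

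These were the only 2 of the 65351 THSs called in GC against the other 4 states at an adjusted p under 0.05 by limma, a share of 0.00306%, and 4864 THSs had an unadjusted p under 0.05. Both were called under all 25 alternative settings of this comparison, with adjusted p from 3.1e-10 to 0.0092 for THS_05423 and from 7.1e-09 to 0.0078 for THS_05424. Every GC library lay above every other library at 0.312% of all THSs. In the test for any difference between the 5 states, THS_05423 (adjusted p = 0.000294) and THS_05424 (adjusted p = 0.000196) were 2 of 18 THSs called, or 0.0275% of all, and no other member was called.

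THS_05422 (8026082 to 8026271) has its midpoint 950 bp upstream, in an untranslated exon of AT1G22680. It had 62.8, 50.3 and 85.9 scaled cutcounts in GC, against 34.5 to 44.8 for Proto, 31.4 to 42.3 for MMC, 26.6 to 48.6 for M and 18.5 to 50.9 for GMC. The lowest GC library lay just below the highest GMC library. The log2 fold change of 0.87 (SE 0.25, unadjusted p = 0.0017) did not pass adjustment (adjusted p = 0.646).

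THS_05421 (8025342 to 8025551), 1680 bp upstream and in an untranslated exon of AT1G22680, had 24.4, 23.4 and 29.1 scaled cutcounts in GC, against 12.4 to 43.8 in the other libraries. The GC range lay inside that of the others, with a log2 fold change of 0.07 (SE 0.30, adjusted p = 0.938).

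The cloned promoter fragment of the GC transgene, placed upstream of the annotated start codon, shares bases with 3 of the 4 GC1 THSs. It covers THS_05424 and THS_05423 in full and 107 of the 190 bp of THS_05422, and it does not reach THS_05421. The GC mean exceeded the mean of the other states by 283 scaled cutcounts at THS_05424, 229.5 at THS_05423 and 30.1 at THS_05422, and differed by -0.20 at THS_05421. Counted from the transcript start instead, the fragment covers all 190 bp of THS_05422 and 325 of the 526 bp of THS_05424. An open state of the endogenous GC1 promoter in guard cells and the additional copy in that line cannot be told apart inside the fragment.

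The nearest THSs outside the GC1 window give the local level. THS_05420, 5120 bp upstream in a coding exon of AT1G22670, had 48.7, 58.5 and 59.8 scaled cutcounts in GC, against 23.7 to 75.1 elsewhere (log2 fold change 0.42, SE 0.25, adjusted p = 0.646). THS_05425, 2890 bp downstream of the start at AT1G22700, had a log2 fold change of -0.03 (SE 0.21, adjusted p = 0.965). THS_05426, 3170 bp downstream, had 0.17 (SE 0.29, adjusted p = 0.838). None of these 3 THSs or THS_05421 was called in GC against the other states under any of 25 alternatives.

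**Figure D1:**
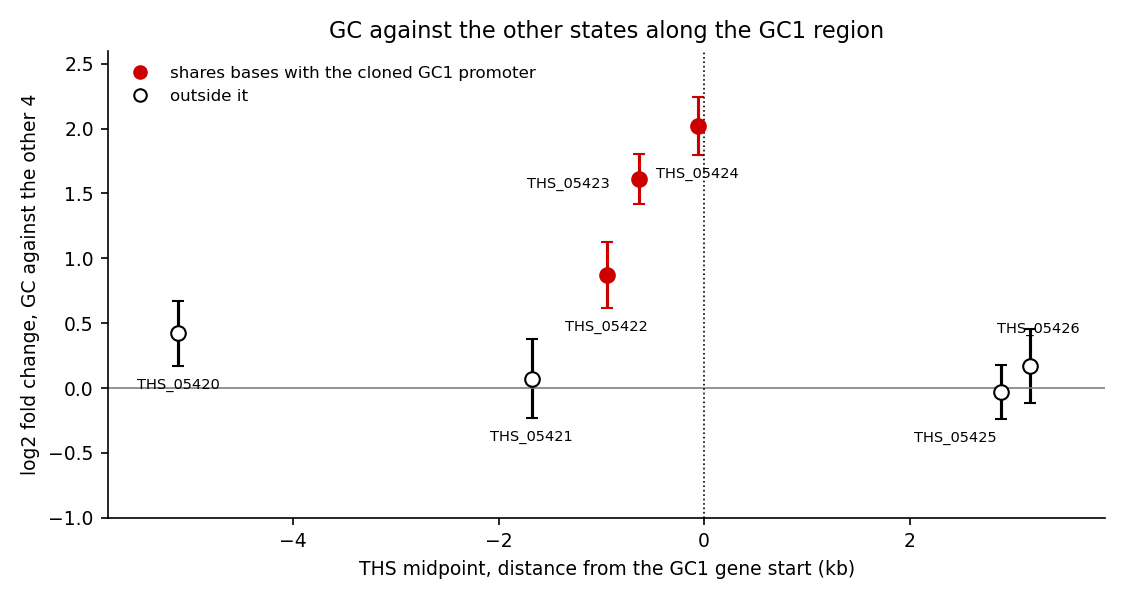
Log2 fold change of GC against the mean of the other 4 states (points, with SE bars) for the 4 GC1 THSs and the 3 nearest THSs outside the window, by distance of the THS midpoint from the GC1 start in kb. The filled points share bases with the cloned promoter and reach 2.02, whereas the open points lie between -0.03 and 0.42.

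GC against GMC compares the last 2 states of the lineage. THS_05423 was higher in GC by a log2 fold change of 2.04 (SE 0.24, adjusted p = 7.5e-05) and THS_05424 by 1.71 (SE 0.28, adjusted p = 0.0217), and these were 2 of the 3 THSs called as higher (0.00459% of all) among 5 called in either direction (0.00765%). The call of THS_05424 was lost when any of the 6 GMC or GC libraries was left out (adjusted p from 0.117 to 0.442, log2 fold changes from 1.61 to 1.78), and under cyclic loess normalization (1.59, adjusted p = 0.957) or without trend and robust (adjusted p = 0.312), while that of THS_05423 held under all 26 alternatives. THS_05422 had a log2 fold change of 1.16 (SE 0.32) that passed only when just the GMC and GC libraries were fitted (adjusted p = 0.0315, against adjusted p = 1.0 in the fit of all libraries).

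Among the remaining states, the levels of GC1 overlapped. Summed over its 4 THSs, which cover 1279 bp, accessibility was 199.6 ± 6.35 scaled cutcounts per kb in Proto nuclei, 208 ± 4.35 in MMC nuclei, 249.6 ± 72.3 in M nuclei, 205 ± 18.4 in GMC nuclei and 639.8 ± 43.6 in GC nuclei (SD, n = 3 each, n = 4 for M). In the order of levels M, MMC, GMC and Proto, the range of each state overlapped with the next, and that of GC did not overlap with any. The median over all THSs of the series was 248 scaled cutcounts per kb. The summed GC1 means outside the GC line were near or below that level, while M replicates 3 and 4 had 342 and 272. The sum joins THSs of unlike level, from 121 per kb at THS_05421 to 459 per kb at THS_05423 over all 16 libraries, GC included.

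The 3 transcription factor genes did not share this pattern. None of their 15 THSs was called by limma in GC against the other 4 states. None had an unadjusted p under 0.05, beside 4864 of all 65351 THSs. Their log2 fold changes lay between -0.15 and 0.57 with a median of 0.09, beside a median of 0.00 over all THSs, and their SEs between 0.17 and 0.39. In GC against GMC, none of the 15 was called or had an unadjusted p under 0.05, beside 1236 of all 65351 THSs at that p by limma. The log2 fold changes lay between -0.48 and 0.24. The median of all 19 members was 0.11 in GC against the other states.

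**Figure D2:**
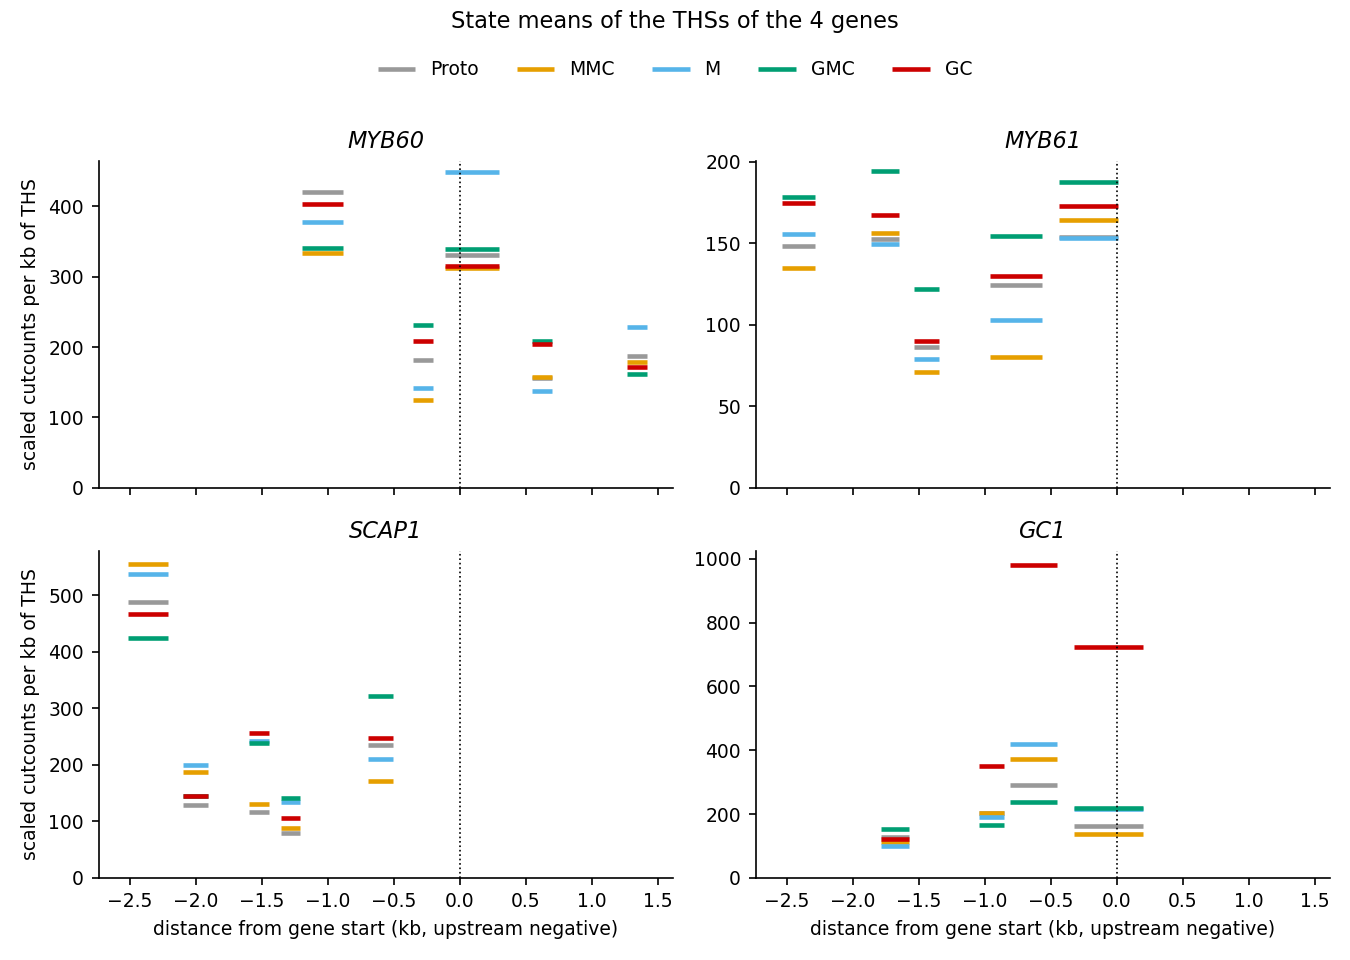
State means of each THS in scaled cutcounts per kb of its length, drawn from its near to its far edge by distance from the gene start in kb, with 1 colour per state. The GC lines stand apart only at GC1, at THS_05423 and THS_05424. Their GC means were 346 and 379.9 scaled cutcounts before division by their lengths of 353 and 526 bp.

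MYB60 lies on the minus strand of chromosome 1 from 2819065 to 2820478, and its 5 THSs run from the end of the gene to the neighbour upstream. They fell into a stronger and a weaker set, with THS_01884 and THS_01886 at 355 and 375 scaled cutcounts per kb and the others at 170.4 to 188 per kb. THS_01884 (2820184 to 2820591) spans the start and had 108, 149 and 129 scaled cutcounts in GC, against 116, 133 and 157 for Proto, 147, 135 and 99.6 for MMC, 115, 153, 274 and 190.0 for M, and 142, 156 and 118 for GMC. M replicate 3 alone reached 274, and all states overlapped (test of the 5 states, adjusted p = 0.511).

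THS_01886 (2821362 to 2821675) is centred in an untranslated exon of the upstream gene AT1G08820, so it cannot be assigned to MYB60 by position. It had 125, 132 and 123 scaled cutcounts in GC, against 111, 108 and 103 for GMC. All GC libraries lay above all GMC libraries, which was so at 8.61% of all THSs, with a log2 fold change of 0.24 (SE 0.22, adjusted p = 1.0). THS_01882 in the untranslated exon at the 3′ end of MYB60 had 15.6 to 51.1 scaled cutcounts over all libraries, and THS_01883 in a coding exon had 10.9 to 48.0.

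THS_01885 (2820682 to 2820831) is a 150 bp THS between genes, 278 bp upstream of MYB60. It had 34.5, 41.9 and 27.5 scaled cutcounts for GMC and 34.7, 35.1 and 23.8 in GC, against 16.2, 24.6 and 15.6 for MMC and 28.8, 15.7, 20.4 and 20.4 for M. Proto was intermediate with 34.6, 23.0 and 24.1. The late states were mostly above the early ones, with 1 GMC and 1 GC library within the range of M.

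Over all 5 THSs of MYB60, accessibility per kb was 295 ± 15.0 in Proto nuclei, 257 ± 52.6 in MMC nuclei, 322 ± 71.3 in M nuclei, 287 ± 25.3 in GMC nuclei and 292 ± 16.4 in GC nuclei (SD, n = 3 each, n = 4 for M). In the order M, Proto, GC, GMC and MMC, each state overlapped with the next.

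MYB61, on the plus strand of chromosome 1 from 3086101 to 3087914, had no THS within the gene apart from the first bases that THS_02056 covers. Its 5 THSs lay between 2415 and 215 bp upstream and were weakly accessible, at 89.0 to 165 scaled cutcounts per kb. THS_02056 (3085662 to 3086111) is the most accessible of them. It had 81.5, 81.9 and 69.8 scaled cutcounts in GC, against 69.3, 73.6 and 65.1 for Proto, 74.5, 73.8 and 73.1 for MMC, 92.2, 80.7, 57.2 and 45.3 for M, and 71.4, 84.6 and 96.8 for GMC. The states overlapped, and the M libraries held both the lowest value and the second highest (test of the 5 states, adjusted p = 0.767).

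THS_02055 (3085142 to 3085531), 765 bp upstream of MYB61, had 51.7, 61.6 and 67.2 scaled cutcounts for GMC and 62.8, 53.8 and 35.3 in GC, against 43.1, 27.6 and 23.3 for MMC and 50.9, 39.9, 45.0 and 24.3 for M. The lowest GMC library (51.7) lay just above the highest MMC or M library (50.9), while GC replicate 3 lay below it. How often GMC alone stands above MMC and M among all THSs was not counted. The weakest member of all, THS_02054, held 5.52 to 27.9 scaled cutcounts.

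Over its 5 THSs, MYB61 had 136 ± 13.5 scaled cutcounts per kb in Proto nuclei, 124 ± 8.66 in MMC nuclei, 130.3 ± 37.8 in M nuclei, 169.8 ± 9.59 in GMC nuclei and 150.4 ± 13.9 in GC nuclei (SD, n = 3 each, n = 4 for M). GMC had the highest mean and overlapped with GC, the next below it. All 5 THSs of MYB61 had a higher mean in the late than in the early states, with log2 fold changes from 0.20 to 0.65, and 1 of them passed the test. The median over all THSs was 0.02, and the share of all THSs above 0 was not counted. With signal contrast as a covariate the 5 values lay between -0.25 and 0.13, so the shared direction was not kept.

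SCAP1 lies on the minus strand of chromosome 5 from 26211746 to 26213233, and none of its 5 THSs touches the gene. They lay 603 to 2365 bp upstream, all between genes. The farthest, THS_64667 (26215447 to 26215751), was the most accessible member per length in the 3 transcription factor genes, at 497 scaled cutcounts per kb. It had 153, 113 and 161 scaled cutcounts in GC, against 104, 161 and 181 for Proto, 113, 154 and 241 for MMC, 114, 161, 217 and 163 for M, and 135, 111 and 142 for GMC. All states overlapped (test of the 5 states, adjusted p = 0.833).

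THS_64663, the nearest to SCAP1, had 61.5, 64.9 and 57.0 scaled cutcounts for GMC and 50.6, 38.6 and 51.4 in GC, against 35.9, 36.4 and 24.9 for MMC and 41.3, 36.8, 47.0 and 34.8 for M. Proto had 38.7, 55.2 and 40.3. All GC libraries lay below all GMC libraries, as at 6.15% of all THSs. The lowest GMC library (57.0) was only just above the highest Proto library (55.2). The log2 fold change of GC against GMC was -0.39 (SE 0.26, adjusted p = 1.0).

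THS_64665 (26214682 to 26214831) had 30.8, 42.7 and 33.6 scaled cutcounts for GMC and 30.9, 52.6 and 31.4 in GC, against 17.96, 23.6 and 17.1 for MMC and 29.8, 20.4, 71.5 and 23.2 for M. M replicate 3 was the highest library of all and held 71.5. THS_64664 held 7.18 to 49.0 scaled cutcounts, and THS_64666 19.2 to 51.1, and at both the highest value was that of M replicate 3.

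Over its 5 THSs, SCAP1 had 251 ± 42.8 scaled cutcounts per kb in Proto nuclei, 274 ± 54.1 in MMC nuclei, 303 ± 93.1 in M nuclei, 279 ± 7.64 in GMC nuclei and 275 ± 18.5 in GC nuclei (SD, n = 3 each, n = 4 for M). Each state overlapped with the next in the order M, GMC, GC, MMC and Proto.

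**Figure D3:**
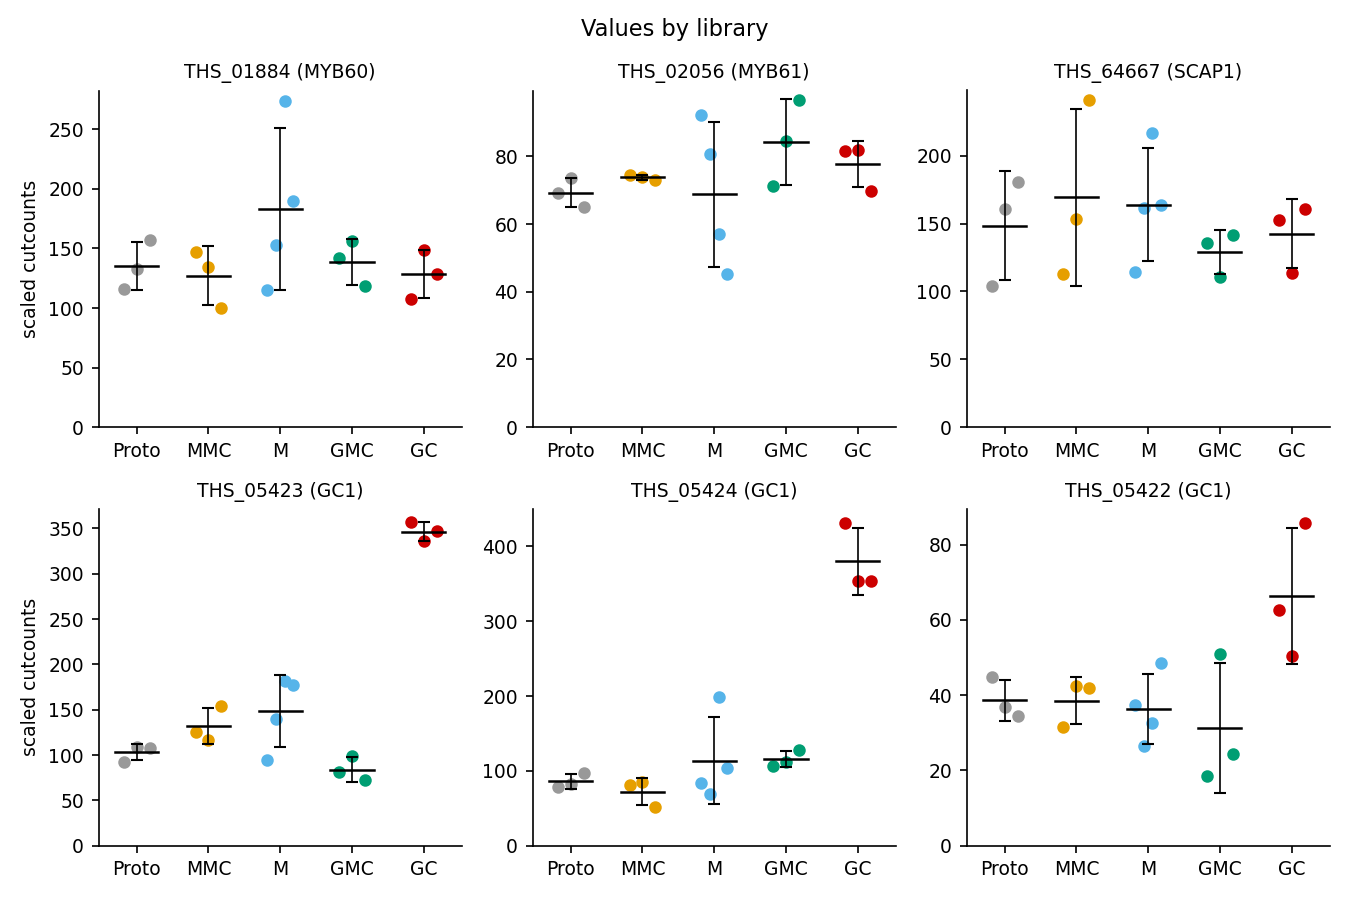
Scaled cutcounts by library (points) in the 5 states for the THS with the most scaled cutcounts at each gene and for 2 further GC1 THSs, with means (wide lines) and SD bars. The 3 GC libraries of THS_05423 lie at 336 to 357, above all others, while at THS_01884, THS_02056 and THS_64667 every state overlaps with GC.

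The comparison of GMC and GC with MMC and M crosses commitment to the stomatal fate, and it separated 4 of the 19 members. All 4 were higher in the late states, at an adjusted p under 0.05 (limma), and they came from all 4 genes. Over all THSs 33.3% were called in this comparison, with 16.7% higher and 16.6% lower, so 4 members higher was close to the background and the absence of lower calls concerned 19 THSs only. The median log2 fold change was 0.31 over the members and 0.02 over all THSs.

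The log2 fold change was 1.27 at THS_05424 of GC1 (SE 0.20, adjusted p = 0.00294), 0.70 at THS_01885 of MYB60 (SE 0.23, adjusted p = 0.0237), 0.65 at THS_02055 of MYB61 (SE 0.21, adjusted p = 0.0235) and 0.57 at THS_64663 of SCAP1 (SE 0.18, adjusted p = 0.0194). At THS_05424 the GMC libraries alone, with 107 to 127 scaled cutcounts, lay within the range of the M libraries, 68.9 to 198. The GC libraries of the late group carry the additional GC1 promoter copy, which shares bases with THS_05424. State and copy cannot be told apart there. At none of the 19 did all GMC and GC libraries lie above all MMC and M libraries, which was so at 2.04% of all THSs, or below them, which was so at 0.978%. THS_64665 had 0.53 (SE 0.26, adjusted p = 0.108) and was called only when M replicate 3 was left out (adjusted p = 0.0271).

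Signal contrast was lower for GMC and GC than for MMC and in 3 of the 4 M libraries. With it as a covariate none of the 19 was called by limma, and 4 had an unadjusted p under 0.05. Among all 65351 THSs, 6 were called and 3080 had an unadjusted p under 0.05. The log2 fold changes of the 4 members called without it became 1.199, 0.35, 0.13 and 0.42 in the order given. The part of signal contrast in the higher late values at MYB60, MYB61 and SCAP1 was not tested beyond this. Without MMC replicate 3, which had the highest contrast, only THS_05424 of the 4 was called. THS_01885 was also lost without GMC replicate 1 or 2 or GC replicate 1 or 2 (adjusted p from 0.0538 to 0.0617), and THS_02055 without M replicate 4, GMC replicate 3 or GC replicate 1 or 2 (0.0536 to 0.0711). Of the left-out libraries, MMC replicate 3 alone cost THS_64663 its call (0.0638). The calls at MYB60, MYB61 and SCAP1 were also all lost under quantile normalization (THS_01885 0.34, THS_02055 0.43 and THS_64663 0.38, adjusted p from 0.103 to 0.246) and cyclic loess normalization (0.31, 0.44 and 0.35, adjusted p from 0.119 to 0.273). Both normalizations kept THS_05424, added THS_05423 as higher and called THS_64666 as lower, and quantile normalization also called THS_01882 as lower.

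**Figure D4:**
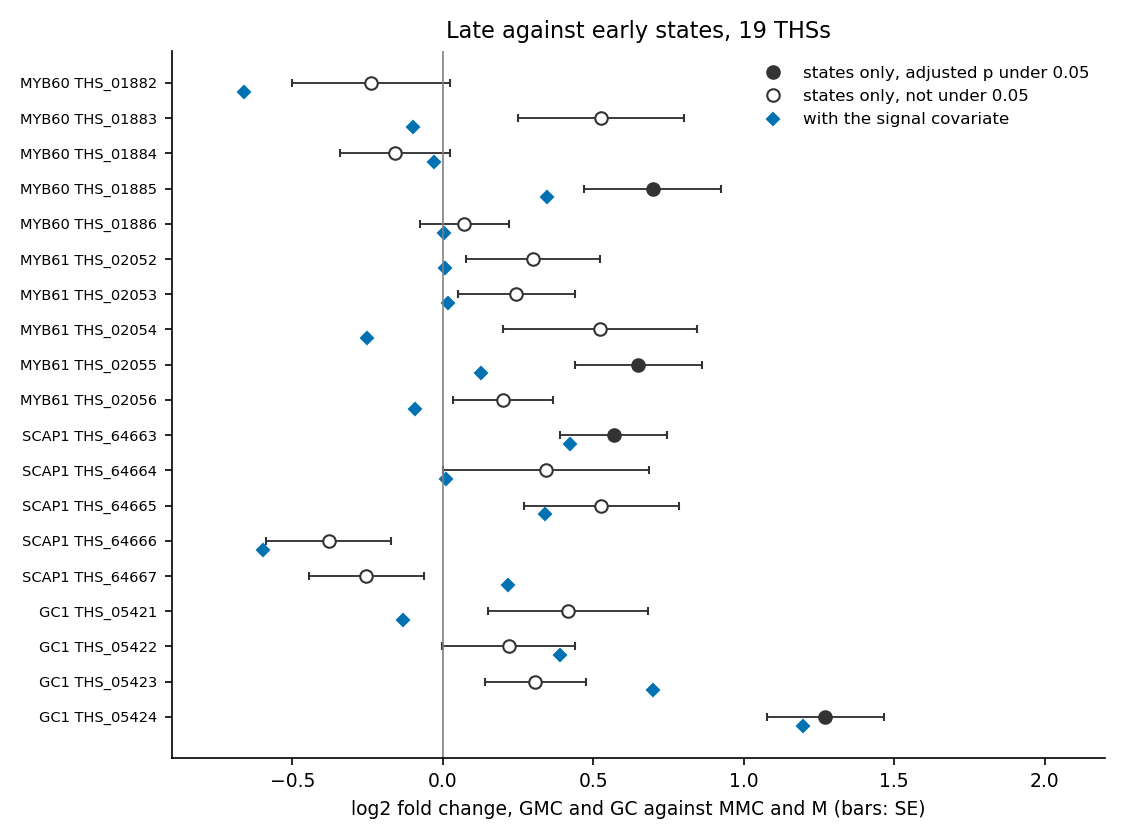
Log2 fold change of GMC and GC against MMC and M for the 19 THSs (circles, with SE bars, filled where the adjusted p is under 0.05) and the same with the signal covariate (diamonds). Filled circles stand at 0.57 to 1.27, and with the covariate 0 of the 19 is called.

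The other guard-cell genes gave no call in GC either. This list, with 71 THSs, holds ion channels and transporters (SLAC1, QUAC1, KAT1, KAT2, GORK and CHX20), the kinases OST1, HT1 and BLUS1, wall and cuticle genes (PME6, FOCL1 and CYP86A2), the myrosinases TGG1 and TGG2, and the MYB factors FLP and MYB88. By limma 0 of the 71 were called in GC against the other states (2 at an unadjusted p under 0.05) and 0 in GC against GMC (1 at an unadjusted p under 0.05). In GMC and GC against MMC and M, 19 of 71 were called, 8 higher and 11 lower, which is 26.8% beside 33.3% of all THSs.

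Among those called, PME6, a pectin methylesterase of the guard-cell wall, had 4 THSs in its window that rose in the late states, with log2 fold changes from 0.53 to 0.96, of which THS_05574 lies in an exon of AT1G23190. THS_56013 of TGG2 rose by 1.07 and THS_48277 of the kinase gene OST1 by 0.69. In an intron of GORK, the outward potassium channel, THS_57064 fell (-0.56). THS_57071 at the far end of its window rose (1.05), but it lies in an intron of AT5G37510 and cannot be assigned to GORK by position. The 3 called THSs in the MYB88 window fell, with log2 fold changes from -0.70 to -0.51, 1 of them (THS_18326) in an exon of AT2G04335, and its close relative FLP had 1 that rose (0.75) and 2 that fell (-0.55 and -0.49). THS_44069 at the 3′ end of QUAC1, which also overlaps AT4G17975, fell (-0.66), as did a THS of CYP86A2 (-0.51). The THSs in the windows of BLUS1 (-0.78) and CHX20 (-0.53 and -0.50) that fell overlap other genes, and those of CHX20 lie in exons of AT3G53730. With the signal covariate limma called none of the 71 (0 at an unadjusted p under 0.05, beside 3080 of all 65351 THSs).

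The nearest MYB relatives, MYB30, MYB31, MYB94 and MYB96 for MYB60 and MYB50, MYB55 and MYB86 for MYB61, had 43 THSs. None was called in GC against the other states or in GC against GMC. None had an unadjusted p under 0.05 in either, beside 4864 and 1236 of all 65351 THSs. In the late against the early states 10 of 43 were called (23.3%), 4 higher and 6 lower. All 4 called THSs of MYB30, a factor of wax synthesis and defence, fell (-0.87 to -0.51). MYB31 had 1 that rose (0.96), MYB86 had 2 (0.85 and 0.68), and MYB94 had 1 that rose (1.201) and 2 that fell (-0.79 and -0.50). With the signal covariate limma called none of the 43 (2 at an unadjusted p under 0.05, beside 3080 of all 65351 THSs).

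Markers of other cells held cutcounts in every state, and no THS of the lists was at 0 in all libraries of a state. Since the THSs were chosen as open regions, this could hardly be otherwise and does not show openness in a given state. For 3 mesophyll genes (RBCS1A, LHCB1.2 and LHCB2.1, 10 THSs) the summed level was 449 to 670.4 scaled cutcounts per kb for GMC and GC, against 442 to 1044 for MMC and M, and 5 of 10 THSs fell, 4 of RBCS1A and 1 in the window of LHCB1.2 that overlaps AT1G29920. For 4 early-lineage genes (EPF2, TMM, BASL and POLAR, 16 THSs) it was 319.7 to 382 for GMC and GC, against 334 to 604 for MMC and M, and 3 of 16 THSs fell (2 of EPF2 and 1 of BASL). Over all THSs 16.6% were called as lower. With the signal covariate limma called 0 of the 10 and 0 of the 16. None of either had an unadjusted p under 0.05, beside 3080 of all 65351 THSs. None of the 6 THSs of the phloem gene SUC2 or of the 6 of the root-hair genes EXP7 and COBL9 was called (limma; 3 and 0 at an unadjusted p under 0.05). In this comparison of late with early states, 30479 of all 65351 THSs had an unadjusted p under 0.05 by limma. In GC against the other states 0 THSs of these 4 lists were called by limma (1, 1, 1 and 0 at an unadjusted p under 0.05 in the order early lineage, mesophyll, phloem and root hair). The part of other cell types in the values of the 4 genes was not tested.

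Sequence words were counted in all 19 THSs. A Dof cluster, defined as at least 3 words AAAAG or TAAAG on 1 strand within 100 bp, occurred in 4 of 19, and these are THS_01884, THS_02056, THS_64667 and THS_05423, the THS with the most scaled cutcounts at each of the 4 genes. These 4 are 305 to 450 bp long, whereas 13 of the other 15 are at most 314 bp, and among all THSs of the series cut to the same lengths 24.6%, 26.8%, 18.5% and 21.5% hold such a cluster. Over the 19 lengths 2.85 members would hold one at the share of all THSs. THS_05423 has 5 of its 6 words on the minus strand, opposite to GC1, while THS_05424 has 3 on the plus strand and 1 on the minus strand without a cluster.

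The GA repeat GAGAGAGA occurred on either strand in THS_01884, THS_64663 and THS_05424, where 10.05%, 4.73% and 12.2% of all THSs of that length hold it. The E-box CACGTG occurred in THS_64667 (8.50% of all) and an AC element, ACCAACC or ACCTACC, in THS_01883 (3.28% of all). None of the 19 overlapped with a listed SPCH peak or MUTE peak, where 5.20% and 7.60% of all THSs did. A word is a match of letters only.

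The THSs elsewhere whose values followed each leading THS most closely over the 16 libraries were found by Pearson's r on the log2 scale. For THS_05423 of GC1 they were THS_42742, nearest to LRX3 (r = 0.78), THS_20841, nearest to RABA4E (0.78), and THS_44958, nearest to AT4G21437 (0.76). For THS_64667 of SCAP1 they were THS_14370 near CLE10 (0.94), THS_54067 near AT5G18140 (0.93) and THS_40383 near EDL3 (0.93). For THS_01884 of MYB60 they were THS_60725 near FUM2 (0.88), THS_47829 near AT4G32030 (0.88) and THS_11974 near AT1G61350 (0.87), and for THS_02056 of MYB61 THS_26973 near AT2G44020 (0.89), THS_64212 near AT5G64120 (0.88) and THS_49592 near AGL21 (0.88). These are the extremes of 65351 THSs that share depth and signal contrast over the same libraries, and no THS elsewhere followed THS_05423 as closely as the leading THSs of the other 3 genes were followed.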

How the data were processed

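ATAC-seq of INTACT-purified nuclei was analysed in 16 libraries of 5 states, grouped by their labels, with 3 to 4 libraries a state. The labels do not say how the libraries of a state were grown, so p-values measure the spread between these libraries. The authors aligned reads to TAIR10 (Bowtie2) without centromeric reads, called peaks (MACS2), joined these with open regions published earlier and counted cuts per THS. The deposited signal values are these cutcounts after the authors divided each library by 1 size factor. They were whole multiples of 1 step per library within 0.02 steps, for values under 30 steps, but were not passed as counts, so limma took the place of the count test considered for whole counts. A further column that matched no library (1 column) was not used.

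THSs were placed on the TAIR10.1 RefSeq annotation. For 421 of 449 dynamic THSs listed with a nearest gene, that gene starts within 5000 bp. Values were taken to log2 after adding a pseudocount of 1, so fold changes of low THSs are understated. The fit (limma 3.58.1, R 4.3.3) had 1 mean per state, eBayes with trend and robust, no filter, and Benjamini-Hochberg adjustment over all THSs at 0.05. It was tested on simulated data. Alternatives were pseudocounts of 5 and 0.5, equal totals, quantile and cyclic loess normalization, a mean of at least 20, limma without trend and robust, the replicate number as a block, signal contrast as a covariate, only the states compared, each library left out, a 1000 bp window, midpoint overlap, a Dof cluster of 2, and the cloned fragment counted from the transcript start. Words were searched on both strands. Python 3.11.15, numpy 2.4.6, pandas 2.3.3 and matplotlib 3.10.9 were used. Every member THS is named. Per gene, the THS with the most scaled cutcounts is given by library with the 3 THSs elsewhere (over 10000 bp away) of highest Pearson correlation, and of the other lists only genes with a called THS are named with values. The members and lists were chosen with earlier results of these data known.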

Additional observations from a re-analysis of the deposited data

Results flagged for a closer look

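At 2 member THSs M replicate 3 lay far above the other 3 M libraries. THS_01886, upstream of MYB60, had 141 scaled cutcounts in M replicate 3 and 109 to 113 in the others, a gap of 0.875 of the whole range. THS_64664, upstream of SCAP1, had 49.0 in M replicate 3 and 7.18 to 14.1 in the others, a gap of 0.835 of the range. Both gaps exceeded the 95% critical value of Dixon's test for 4 samples, which chance passes in about 1 of 20 groups. Only M, the state with 4 libraries, was examined, at each of the 19 members. M replicate 3 is the library with the fewest cutcounts.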

How the results depend on the processing

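The 2 GC1 THSs called in GC against the other states and in the test of the 5 states were called under every alternative run. In GC against GMC, 1 member was called in place of 2 with cyclic loess normalization and 1 without trend and robust, and 1 to 2 when each library was left out. In GMC and GC against MMC and M, 0 members were called in place of 4 with the signal covariate, 3 with cyclic loess normalization and 4 with quantile normalization, of which only THS_05424 was shared with the 4 under either, and 1 to 5 when each library was left out. Over all THSs, GC against the other states gave 2 calls, 6 with the signal covariate and 2 to 4 leaving libraries out, and GC against GMC gave 5, with 3 after cyclic loess normalization, 76 when only these states were fitted and 3 to 5 leaving libraries out. GMC and GC against MMC and M gave 21759, with 13177 after quantile normalization, 10466 after cyclic loess normalization and 6 with the signal covariate, and 10570 (without MMC replicate 3) to 31613 (without M replicate 1) leaving libraries out. Equal totals moved the median log2 fold change of this contrast from 0.02 to 0.13. Its calls then split into 13336 higher and 7706 lower, against 10935 and 10824. The test of the 5 states gave 18, with 199 at a pseudocount of 5, 29 with equal totals, 4054 after quantile normalization, 30 after cyclic loess normalization, and 12 to 17272 (without M replicate 1) leaving libraries out. Without MMC replicate 2 it gave 9422 and without MMC replicate 3 it gave 3593. The causes were not tested. Of the other guard-cell genes 19 THSs were called in the late against the early states, with 8 after quantile normalization, 7 after cyclic loess normalization, 0 with the signal covariate and 7 to 29 leaving libraries out, and of the MYB relatives 10, with 6 after cyclic loess normalization, 0 with the signal covariate and 6 to 16 leaving libraries out. A 1000 bp window held 11 of the 19 THSs, and a Dof cluster of 2 words occurred in 10 in place of 4.

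Some small GC against other states values around GC1, none of them called, changed sign. THS_05421 (0.07) was -0.16 after quantile normalization, -0.11 after cyclic loess normalization and -0.17 with the signal covariate, and -0.024 to 0.17 leaving libraries out. THS_05425 (-0.03) was 0.0078 with the replicate block and 0.027 with the signal covariate, and -0.089 to 0.051 leaving libraries out. THS_05426 (0.17) was -0.012 after quantile normalization, -0.0091 after cyclic loess normalization and -0.012 with the signal covariate.

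The values do not settle whether the replicate numbers pair the libraries. Deviations from the state mean correlated at a mean r of 0.061 between libraries of different states with the same number (30 pairs, -0.22 to 0.40). With different numbers the mean r was -0.026 (72 pairs, -0.67 to 0.63). With the replicate number as a block the calls of the members numbered 2, 2, 4 and 2 in the 4 tests as before. Calls over all THSs were 4 in GC against the other states, against 2 without the block. In the test of the 5 states they were 3057, against 18. The weakest values rest on 5 cutcounts.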
